A study of Mus musculus with 24 samples.

Results

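10 chemokine ligand genes were described one by one across the 24 RNA-seq libraries of the series, 4 in each of 6 groups: Ccl2, Ccl7, Ccl20, Cxcl1, Cxcl2, Cxcl5, Cxcl10, Cxcl12, Cxcl14 and Cxcl16. They were chosen by symbol with earlier results of these data known, so counts of called members are descriptive only. All 10 of 10 were found by identifier among the 49671 counted genes and lay among the 19691 genes tested. Neonatal astrocytes came from 4 to 8 day old C57BL/6J mice and adult astrocytes from 100 to 140 day old C57BL/6J mice, 2 mice pooled per isolation, and were bound by magnetic beads against the astrocyte surface antigen ACSA-2. They were frozen at once (neoAC direct, AdAC direct) or kept for 7 to 10 days in culture (neoAC CellC, AdAC CellC). The neural stem cells (NSC) were differentiated from 1 C57BL/6N mouse embryonic stem cell line and grown with FGF and EGF, and the AGES were astrocytes made from these NSC by 3 to 5 days of BMP4 at 20 ng/ml. All NSC and AGES libraries came from that 1 line, so their p-values measure the spread between cultures of it.

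Chemokines are small secreted proteins that guide leukocytes along a gradient by binding G protein-coupled receptors, and their families are named after the spacing of the first cysteines. CC ligands such as Ccl2 mainly attract monocytes and lymphocytes, CXC ligands that carry a glutamate-leucine-arginine motif attract neutrophils through Cxcr2, and Cxcl10 belongs to a set induced by interferon that attracts T cells through Cxcr3. Cxcl12 and Cxcl14 are usually made without inflammation. In the brain, reactive astrocytes are a known source of Ccl2 and Cxcl10, and Cxcl12 with its receptor Cxcr4 guides migrating neurons and precursors.

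Library totals lay between 27904126 and 37997368 counts, and 3 counts corresponded to 0.0786 to 0.117 CPM (counts relative to the library total, scaled by the TMM method), so levels at or under 3 counts in every library are given as counts. The 8 astrocyte markers checked were each above 3 counts in every library, but their summed level was 54294 to 58947 CPM in AGES, 19481 to 22273 in neoAC direct, 13865 to 14356 in AdAC direct, 6325 to 7393 in neoAC CellC, 1908 to 2427 in NSC and 821 to 1277 in AdAC CellC. AdAC CellC also held the highest sums of fibroblast genes (1065 to 1548 CPM against 83.1 to 99.5 in AdAC direct, 6 of 6 genes above 3 counts in every library) and of mesothelial and epithelial genes (126 to 303 against 27.0 to 29.5, 6 of 7 genes). Mural genes summed to 855 to 1017 CPM in AdAC CellC and 312 to 333 in AdAC direct. In neonatal cells, ependymal genes summed to 1323 to 1679 CPM in culture and 122 to 184 when isolated directly, and fibroblast genes to 390 to 653 and 197 to 327. Microglia and macrophage genes summed to 17.9 to 30.5 CPM in AdAC CellC and 16.9 to 24.5 in AdAC direct, and oligodendrocyte genes to 4119 to 10498 and 25845 to 28652. The library neoAC direct 2 stood apart from its group, with 56.9 CPM of microglia and macrophage genes against 11.2 to 20.2 in the other 3, 396 of endothelial genes against 100.1 to 156 and 513 of mural genes against 237 to 331. The share of these cells in the results below was not tested, and in bulk RNA fewer cells of a type and less RNA per cell cannot be told apart. Adult and neonatal tissue were dissociated with different kits. The paper also describes debris and red blood cell removal for adult tissue only, and removal of meninges for neonatal tissue only. Age cannot be told apart from these steps either. For adults, removal of the olfactory bulb and cerebellum is described for direct isolation, so tissue region may differ from culture. AGES and primary cells were grown in different media, so origin and medium cannot be told apart.

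Promoter sequences from RefSeq (GRCm38) were at hand for 6 members, and 4 are shown because they hold the binding motif of NF-kB, the transcription factor through which inflammatory cytokines act on many chemokine genes. Each is the 250 bases before the transcription start, 5′ to 3′ on the gene's strand, with capitals marking the letters matched by any of 3 motifs on either strand: the NF-kB consensus, the core of the interferon-stimulated response element (ISRE, GAAANNGAA) and the AP-1 motif (TGANTCA).
Cxcl1, chr5:90890995-90891244, plus strand: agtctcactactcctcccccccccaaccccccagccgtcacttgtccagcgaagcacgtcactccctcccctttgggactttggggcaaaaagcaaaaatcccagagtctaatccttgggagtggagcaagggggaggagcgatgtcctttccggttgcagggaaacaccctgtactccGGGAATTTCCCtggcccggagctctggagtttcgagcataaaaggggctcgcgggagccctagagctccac
Cxcl2, chr5:90903649-90903898, plus strand: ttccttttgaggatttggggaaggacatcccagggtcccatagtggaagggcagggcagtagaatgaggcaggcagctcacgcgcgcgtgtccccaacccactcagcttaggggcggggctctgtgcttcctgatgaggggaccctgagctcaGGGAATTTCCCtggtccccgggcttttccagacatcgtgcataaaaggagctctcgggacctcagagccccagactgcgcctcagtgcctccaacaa
Cxcl10, chr5:92348890-92349139, minus strand: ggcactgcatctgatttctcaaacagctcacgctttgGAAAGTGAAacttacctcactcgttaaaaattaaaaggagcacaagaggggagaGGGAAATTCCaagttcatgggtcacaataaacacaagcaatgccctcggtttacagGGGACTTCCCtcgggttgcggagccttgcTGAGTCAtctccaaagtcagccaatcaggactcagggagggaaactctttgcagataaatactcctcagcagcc
Ccl20, chr1:83116516-83116765, plus strand: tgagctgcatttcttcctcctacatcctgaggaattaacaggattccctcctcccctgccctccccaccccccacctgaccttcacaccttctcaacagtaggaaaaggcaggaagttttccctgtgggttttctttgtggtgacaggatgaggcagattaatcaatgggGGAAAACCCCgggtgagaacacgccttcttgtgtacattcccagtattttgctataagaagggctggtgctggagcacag
Cxcl1 and Cxcl2 each held the same NF-kB match, inside a shared run of 14 bases (gggaatttccctgg), 71 bases before the start in Cxcl1 and 97 in Cxcl2. Cxcl10 held 2 NF-kB matches, 1 ISRE core match and 1 AP-1 match, and Ccl20 held 1 NF-kB match. Among all 32851 promoter windows of that length, 3.9% held the NF-kB consensus, 7.13% the ISRE core and 6.75% the AP-1 motif. Of the other two members with a window, Cxcl14 held 1 ISRE core match and Cxcl12 none of the 3 motifs. A match describes letters only, and binding was not measured. Ccl2, Ccl7, Cxcl5 and Cxcl16 are named without a sequence.

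Between cultured and directly isolated cells, the signed median change of the members, given below, was larger in the adult groups. Astrocyte markers were also lower in culture, as given above, and the part of other cells was not tested. Between AdAC CellC and AdAC direct, 9 of the 10 members were higher and 1, Cxcl14, was lower at an adjusted p under 0.05 (edgeR quasi-likelihood test, Benjamini-Hochberg), where 38.8% of all tested genes were called higher and 39.2% lower. In neonatal astrocytes 5 were higher (Ccl2, Ccl20, Cxcl5, Cxcl10, Cxcl16) and 4 lower (Cxcl1, Cxcl2, Cxcl12, Cxcl14) in culture, against 34.4% and 31.3% of all genes (43.8% and 22.7% without TMM scaling), and Ccl7 was not called. The median log2 fold change of the members, Ccl20 included, was 5.79 in adults and 1.34 in neonates, beside medians of 0 and 0.04 over all tested genes. It keeps the signs, so in neonates rises and falls offset each other in it. The difference between these 2 changes, tested as the interaction of culture and age, was positive for 6 members (Ccl2, Ccl7, Cxcl1, Cxcl2, Cxcl12, Cxcl16) and negative for Cxcl14, with 35.4% and 33.2% of all genes called. The Ccl20 call in neonates rests on 9 counts in 4 cultured libraries against 0, under the limit of 3 counts per library, so no fold is given for it.

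**Figure D1:**
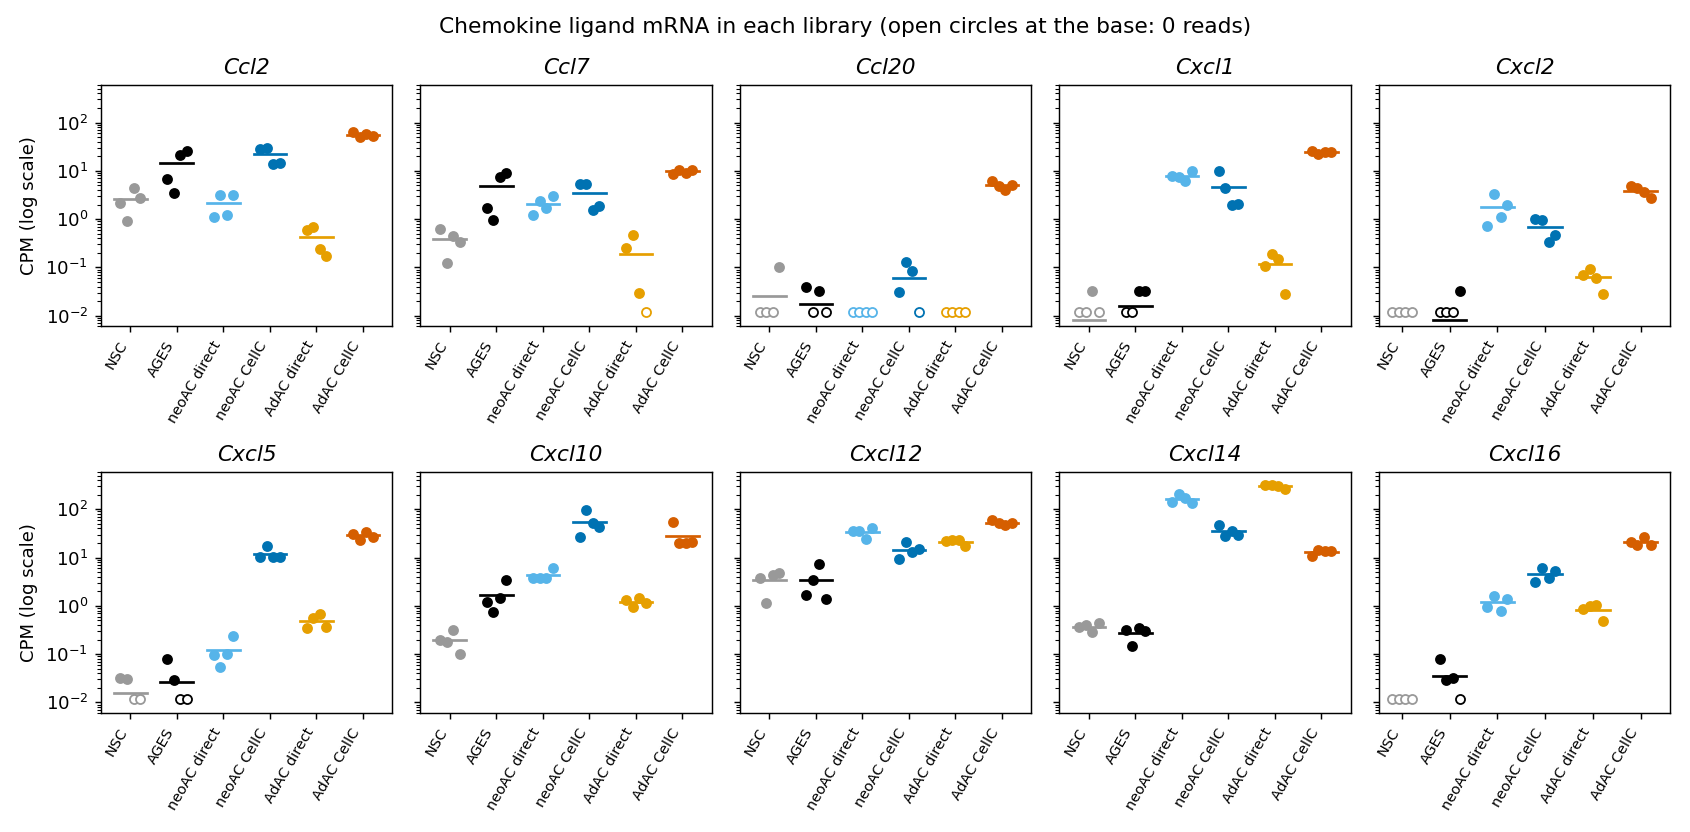
Level of each of the 10 ligand genes in CPM (log scale) in every library, by group. Filled points are libraries, open circles at the base are libraries with 0 reads and lines are group means of 4 libraries. In 8 genes the 4 AdAC CellC libraries have the highest group mean, while Cxcl14 is highest in AdAC direct and Cxcl10 in neoAC CellC.

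**Figure D2:**
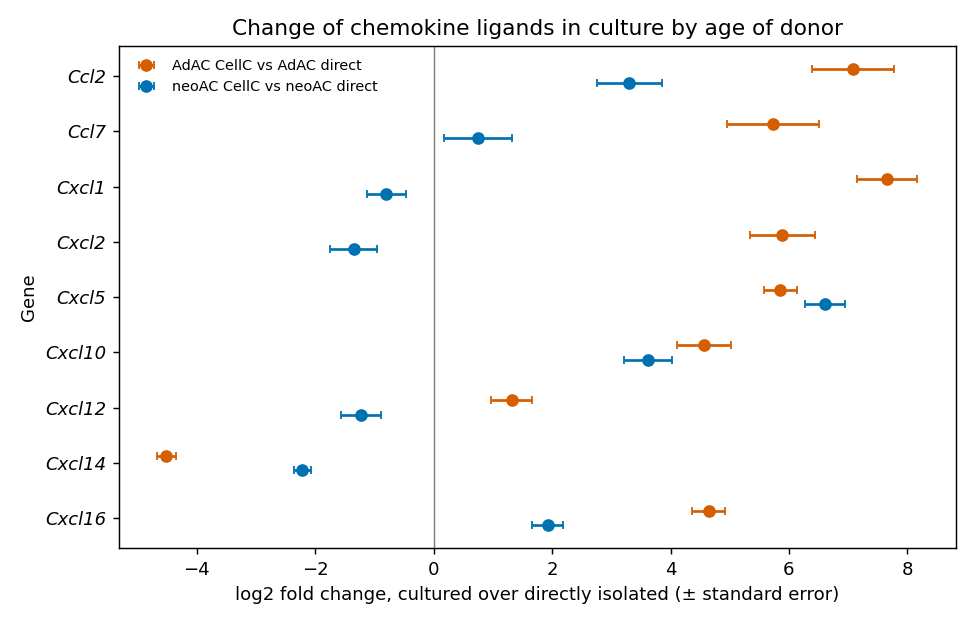
Log2 fold change from directly isolated to cultured astrocytes with its standard error (x axis) for 9 ligand genes (y axis), in adults (orange) and neonates (blue). Cxcl1, Cxcl2 and Cxcl12 lie on opposite sides of 0 at the 2 ages, and for Cxcl5 and Cxcl10 the ages differ by less than 1 on the log2 scale. Ccl20 is left out because its neonatal counts were near 0.

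Ccl2 (ENSMUSG00000035385; chromosome 11, 82035571 to 82037453, plus strand), which encodes the main monocyte attractant acting through Ccr2, rose in culture at both ages and was highest in AdAC CellC. It lay at 62.9, 51.0, 57.2 and 53.2 CPM in the 4 AdAC CellC libraries and at 0.603, 0.680, 0.238 and 0.169 in AdAC direct. The groups did not overlap, and the log2 fold change was 7.08 ± 0.69 (standard error; edgeR adjusted p = 6.79e-09), a 133-fold difference of means. Neonatal cells held 28.4, 30.4, 13.8 and 14.5 CPM in culture and 1.11, 3.21, 1.22 and 3.16 when isolated directly. These groups did not overlap either, the log2 fold change was 3.31 ± 0.55 (edgeR adjusted p = 2.10e-05), and the change was larger in adults by 3.77 ± 0.90 on the log2 scale (edgeR adjusted p = 0.000907). Directly isolated neonatal cells held more Ccl2 than adult ones, with a log2 fold change of 2.40 ± 0.77 (edgeR adjusted p = 0.00863). The order turned in culture, where neoAC CellC lay 2.58-fold under AdAC CellC (log2 fold change -1.37 ± 0.47, edgeR adjusted p = 0.0158), a call that was lost without neoAC CellC replicate 3 (edgeR adjusted p = 0.0557) or replicate 4 (edgeR adjusted p = 0.0540) and in the DESeq2 Wald test (adjusted p = 0.0545).

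In the stem cell line, Ccl2 lay at 2.15, 0.911, 4.49 and 2.74 CPM in NSC and at 6.67, 3.54, 21.5 and 25.8 in AGES. AGES were higher by a log2 fold change of 2.49 ± 0.54 (edgeR adjusted p = 0.000368), but the 4 libraries fell into a lower pair, replicates 1 and 2, and a higher pair, replicates 3 and 4, and the lowest AGES library lay under the highest NSC library. The summed level of 10 immediate-early genes had the same split, at 396, 413, 629.8 and 593 CPM in AGES replicates 1 to 4, and its part in the result was not tested. AGES held 3.90-fold less Ccl2 than AdAC CellC (log2 fold change -1.96 ± 0.48, edgeR adjusted p = 0.00101), while the difference from neoAC CellC did not pass the threshold (-0.60 ± 0.48, edgeR adjusted p = 0.264).

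Ccl7 (ENSMUSG00000035373; chromosome 11, 82045712 to 82047525, plus strand), a second ligand of Ccr2 whose gene follows Ccl2 on the chromosome, rose in adult culture and in AGES, and its change in neonatal culture did not pass the threshold. AdAC CellC held 8.53, 10.6, 9.19 and 10.5 CPM and AdAC direct 0.248, 0.463, 0.0297 and 0. The groups were far apart, with a log2 fold change of 5.73 ± 0.77 (edgeR adjusted p = 5.46e-07) that was 6.80 without AdAC direct replicate 2. Neonatal cultures held 5.37, 5.32, 1.55 and 1.83 CPM and directly isolated neonatal cells 1.20, 2.35, 1.73 and 3.03. The 2 groups overlapped (log2 fold change 0.75 ± 0.57, edgeR adjusted p = 0.259), and the interaction was 4.98 ± 0.98 (edgeR adjusted p = 0.000116). Replicates 1 and 2 of neoAC CellC were higher than replicates 3 and 4 for Ccl7 as for Ccl2. The difference between neoAC CellC and AdAC CellC, a log2 fold change of -1.47 ± 0.55 (edgeR adjusted p = 0.0234), was lost without neoAC CellC replicate 3 (edgeR adjusted p = 0.0811) or replicate 4 (edgeR adjusted p = 0.0771), with no filter (edgeR adjusted p = 0.0730) and in the DESeq2 Wald test (adjusted p = 0.104). When isolated directly, neonatal cells were higher than adult cells by 3.51 ± 0.81 on the log2 scale (edgeR adjusted p = 0.000562), and by 4.58 without AdAC direct replicate 2, which took the interaction to 6.05.

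Ccl7 went from 0.619, 0.121, 0.446 and 0.334 CPM in NSC to 1.72, 0.957, 7.31 and 9.12 in AGES. The groups did not overlap and AGES replicates 3 and 4 were again the high pair, with a log2 fold change of 3.65 ± 0.70 (edgeR adjusted p = 7.87e-05). Ccl7 was the member that did not differ by test between AGES and AdAC CellC (log2 fold change -1.02 ± 0.54, edgeR adjusted p = 0.0906), but it did without AGES replicate 4 (-1.54, edgeR adjusted p = 0.0205) and without TMM scaling (-1.26, edgeR adjusted p = 0.0400).

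Ccl20 (ENSMUSG00000026166; chromosome 1, 83116766 to 83119167, plus strand), the ligand of Ccr6 that draws in Th17 cells and dendritic cells, was found above the limit of 3 counts per library in AdAC CellC alone among the group means. Its counts were 197, 169, 154 and 163 in AdAC CellC, 0 in every AdAC direct and neoAC direct library, 1, 5, 3 and 0 in neoAC CellC, 0, 0, 0 and 3 in NSC and 1, 0, 1 and 0 in AGES. AdAC CellC libraries lay at 6.05, 4.93, 4.09 and 5.06 CPM, at least 54.0-fold higher than AdAC direct at a limit of 3 counts per library (edgeR adjusted p = 1.53e-10). It was also higher than in neoAC CellC, with 683 counts in all against 9 (edgeR adjusted p = 1.43e-09). Against AGES, with 2 counts in all, the ratio of summed counts over summed scaled library totals was 304-fold (95% counting interval 83.8 to 2514). That interval covers counting error only. In directly isolated cells no read of Ccl20 was counted, and no library of the stem cell line exceeded 3 counts. AdAC CellC, where Ccl20 was counted, was also the group with the highest sum of mesothelial and epithelial genes, at 142, 126, 303 and 151 CPM in replicates 1 to 4. Ccl20 was lowest in replicate 3, where that sum was highest, while Cldn4 of that list was among the 3 genes most like Ccl20 over all libraries. The part of mesothelial and epithelial cells in the level of Ccl20 was not tested.

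Cxcl1 (ENSMUSG00000029380; chromosome 5, 90891241 to 90893115, plus strand), a neutrophil attractant acting through Cxcr2, rose in adult culture and was lower in neonatal culture than in directly isolated neonatal cells. It lay at 25.3, 21.9, 24.9 and 24.8 CPM in AdAC CellC and 0.106, 0.185, 0.149 and 0.0282 in AdAC direct. No library of one group reached the other, and the log2 fold change was 7.66 ± 0.51 (edgeR adjusted p = 1.44e-12). The neonatal libraries held 9.80, 4.32, 1.94 and 2.02 CPM in culture and 7.87, 7.39, 6.18 and 9.81 when isolated directly. These groups overlapped through neoAC CellC replicate 1, and the log2 fold change was -0.80 ± 0.33 (edgeR adjusted p = 0.0363). That call depended on the libraries and settings: it was lost in the DESeq2 Wald test (adjusted p = 0.0758), without TMM scaling (edgeR adjusted p = 0.125), with no filter (edgeR adjusted p = 0.0583), in a fit of these 2 groups alone (edgeR adjusted p = 0.113), and without any 1 of neoAC CellC replicates 2, 3 and 4 or neoAC direct replicates 1, 2 and 4 (edgeR adjusted p = 0.0504 to 0.144), with log2 fold changes from -1.49 to -0.53 over all single omissions. The interaction, 8.46 ± 0.62 (edgeR adjusted p = 1.77e-11), was the largest among the 9 members for which it was estimated, and was 9.17 without neoAC CellC replicate 1. Between directly isolated groups, neonatal cells were 66.7-fold higher than adult cells (log2 fold change 6.03 ± 0.52, edgeR adjusted p = 2.44e-10).

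The immediate-early genes, which tissue dissociation is known to induce, summed to 9645 to 14084 CPM in neoAC direct and 1361 to 2128 in AdAC direct, against 472 to 761 in neoAC CellC and 679.6 to 792 in AdAC CellC. All 10 were called lower in neonatal culture (31.3% of all genes). In adult culture 3 were called higher and 7 lower (38.8% and 39.2% of all genes). Their part in the level of Cxcl1 in neoAC direct was not tested. NSC and AGES had 0, 0, 1 and 0 and 0, 0, 1 and 1 Cxcl1 counts, at the limit of detection. AdAC CellC exceeded AGES 1474-fold (95% counting interval 408 to 12177) and neoAC CellC exceeded AGES 266-fold (95% counting interval 73.3 to 2199.9), both called (edgeR adjusted p = 5.52e-13 and 7.10e-10).

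Cxcl2 (ENSMUSG00000058427; chromosome 5, 90903871 to 90905938, plus strand), a close relative of Cxcl1 with the same receptor, had the same directions at lower levels. AdAC CellC held 4.76, 4.37, 3.61 and 2.76 CPM, from 155, 150, 136 and 89 counts, while AdAC direct had 2, 3, 2 and 1 counts. The ratio was 62.8-fold (95% counting interval 31.6 to 146), and the test passed (edgeR adjusted p = 1.56e-09). Neonatal cells held 0.998, 0.970, 0.333 and 0.471 CPM in culture and 0.715, 3.24, 1.09 and 1.96 when isolated directly. The groups overlapped, the log2 fold change was -1.35 ± 0.39 (edgeR adjusted p = 0.00475), and without neoAC direct replicate 2, the highest Cxcl2 library of its group and the one with the highest microglial, endothelial and mural sums, it was -0.86 and not called (edgeR adjusted p = 0.0517). The interaction was 7.23 ± 0.69 (edgeR adjusted p = 4.04e-09). NSC had 0 counts in 4 libraries and AGES 1 count in all. Against that single count neoAC CellC was higher by 83.8-fold (95% counting interval 14.7 to 3342) and AdAC CellC by 472-fold (95% counting interval 84.3 to 18663), both called (edgeR adjusted p = 2.54e-06 and 4.41e-10). Directly isolated neonatal cells exceeded adult ones 29.5-fold (95% counting interval 14.7 to 69.1) (edgeR adjusted p = 1.29e-07).

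**Figure D3:**
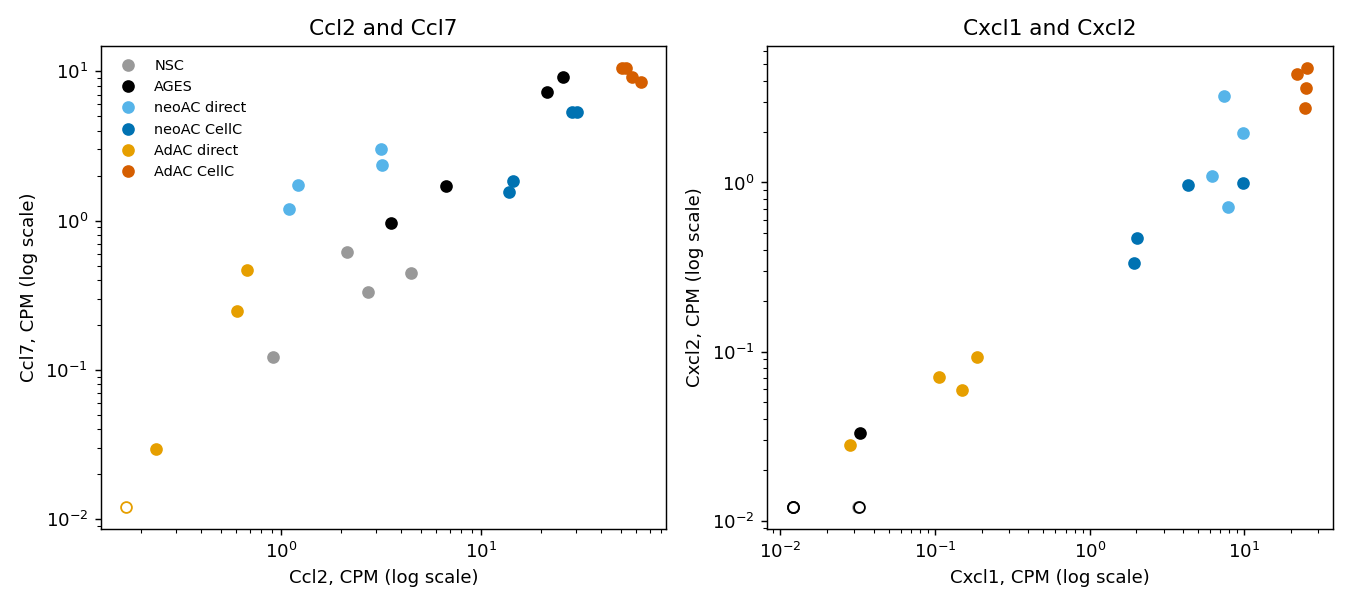
Levels in CPM (both axes on log scales) of Ccl2 against Ccl7 and of Cxcl1 against Cxcl2, the neighbouring pairs of genes, in the 24 libraries. Open circles at the base of an axis have 0 reads for a gene, where NSC and AGES points lie on each other. AGES and neoAC CellC each fall into 2 pairs of libraries for Ccl2 and Ccl7.

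Genes downstream of NF-kB, 15 feedback regulators and targets that hold no member, were counted beside Cxcl1 and Cxcl2. In adult culture 14 were higher and 1, Il1b, was lower, with a median log2 fold change of 2.33, where 38.8% of all genes were called higher and 39.2% lower. In neonatal culture 5 were higher and 9 lower (34.4% and 31.3% of all genes), with a median of -1.07. Ptgs2, which makes prostaglandins, rose 77.7-fold in adult culture (log2 fold change 6.27 ± 0.31, edgeR adjusted p = 2.42e-14), and Icam1, a leukocyte adhesion molecule, rose 37.4-fold there (edgeR adjusted p = 6.29e-18) and 4.44-fold in neonatal culture (edgeR adjusted p = 6.18e-12). Nfkbiz, an inducible co-factor of NF-kB, was lower in neonatal culture (-2.81 ± 0.25, edgeR adjusted p = 1.31e-09). The interaction was positive for 12 of the 15 and negative for 1 (35.4% and 33.2% of all genes).

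Cxcl5 (ENSMUSG00000029371; chromosome 5, 90759360 to 90761624, plus strand), the third neutrophil attractant, rose in culture at both ages. AdAC CellC held 31.4, 23.4, 33.1 and 27.1 CPM and AdAC direct 0.355, 0.556, 0.683 and 0.367. The groups were separate, with a log2 fold change of 5.86 ± 0.27 (edgeR adjusted p = 5.94e-16). NeoAC CellC held 10.05, 17.8, 10.1 and 10.03 CPM, and neoAC direct had 3, 2, 3 and 7 counts. Here the log2 fold change was 6.61 ± 0.33 (edgeR adjusted p = 7.02e-15), and the interaction, -0.75 ± 0.50, did not pass the threshold (edgeR adjusted p = 0.187). Unlike Cxcl1 and Cxcl2, Cxcl5 was lower in neoAC direct than in AdAC direct (log2 fold change -2.01 ± 0.45, edgeR adjusted p = 0.000328). In culture the adult cells were also higher, with neoAC CellC 2.40-fold under AdAC CellC (edgeR adjusted p = 6.42e-06). NSC had 1, 1, 0 and 0 counts and AGES 2, 1, 0 and 0, so AGES lay below AdAC CellC 1169.9-fold (95% counting interval 400.0 to 5675) and below neoAC CellC 492-fold (95% counting interval 168 to 2387) (edgeR adjusted p = 1.78e-17 and 5.40e-16).

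Cxcl10 (ENSMUSG00000034855; chromosome 5, 92346638 to 92348889, minus strand), the T cell attractant induced by interferon, rose in culture at both ages and reached its highest mean in neoAC CellC. It lay at 26.2, 94.4, 50.8 and 43.1 CPM in neoAC CellC and 3.77, 3.77, 3.84 and 6.02 in neoAC direct. The groups did not overlap, with a log2 fold change of 3.63 ± 0.41 (edgeR adjusted p = 6.38e-08). The adult libraries held 53.6, 20.03, 20.2 and 20.6 CPM in culture and 1.35, 0.927, 1.43 and 1.13 when isolated directly. AdAC CellC replicate 1 stood far above the other three, every cultured library exceeded every directly isolated one, and the log2 fold change was 4.56 ± 0.46 (edgeR adjusted p = 5.38e-09; 4.08 to 4.72 when 1 library was left out). The interaction was 0.94 ± 0.59 and not called (edgeR adjusted p = 0.162), but without neoAC CellC replicate 2 it was 1.37 and called (edgeR adjusted p = 0.0289).

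NeoAC CellC exceeded AdAC CellC in Cxcl10 by a log2 fold change of 0.91 ± 0.36 (edgeR adjusted p = 0.0315), with overlapping libraries. This call was lost without neoAC CellC replicate 2 (0.49, edgeR adjusted p = 0.227), without any 1 of AdAC CellC replicates 2, 3 and 4 (edgeR adjusted p = 0.0908 to 0.0938), and in a fit of these 2 groups alone (1.01, edgeR adjusted p = 0.124). Directly isolated neonatal cells were 3.60-fold higher than adult ones (edgeR adjusted p = 0.00126). AGES held 1.21, 0.754, 1.44 and 3.36 CPM and NSC 0.196, 0.182, 0.318 and 0.100. AGES were higher in every library (log2 fold change 3.05 ± 0.70, edgeR adjusted p = 0.000565) and lay 31.7-fold under neoAC CellC and 16.9-fold under AdAC CellC (edgeR adjusted p = 1.06e-09 and 1.92e-08). The exons of Cxcl10 overlap 133 bases of Art3 on the opposite strand. Whether the counting used strand is not stated, so the count of Cxcl10 reads from that stretch is uncertain.

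Interferon target genes, 10 that do not include Cxcl10, were summed in each library. The sum was 232, 759, 534 and 421 CPM in neoAC CellC replicates 1 to 4 and 246, 123, 142 and 132 in AdAC CellC replicates 1 to 4. Replicate 2 was highest and replicate 1 lowest for both Cxcl10 and the sum in neoAC CellC, and replicate 1 was highest for both in AdAC CellC. Of these 10 genes, 9 were called higher and 1 lower in neonatal culture (34.4% and 31.3% of all genes), and 3 were called in adult culture, each higher (38.8% of all genes higher and 39.2% lower). The interaction of culture and age was called negative for 9 of them and positive for 1, beside 33.2% and 35.4% of all genes. Ifit1, which binds foreign RNA, rose 107-fold in neonatal culture (log2 fold change 6.73 ± 0.76, edgeR adjusted p = 8.94e-08), and Irf1, an interferon-induced transcription factor, was the one that was lower there (edgeR adjusted p = 6.07e-14). In adult culture Irf1 was among the 3 that rose (2.33-fold, edgeR adjusted p = 2.94e-11).

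**Figure D4:**
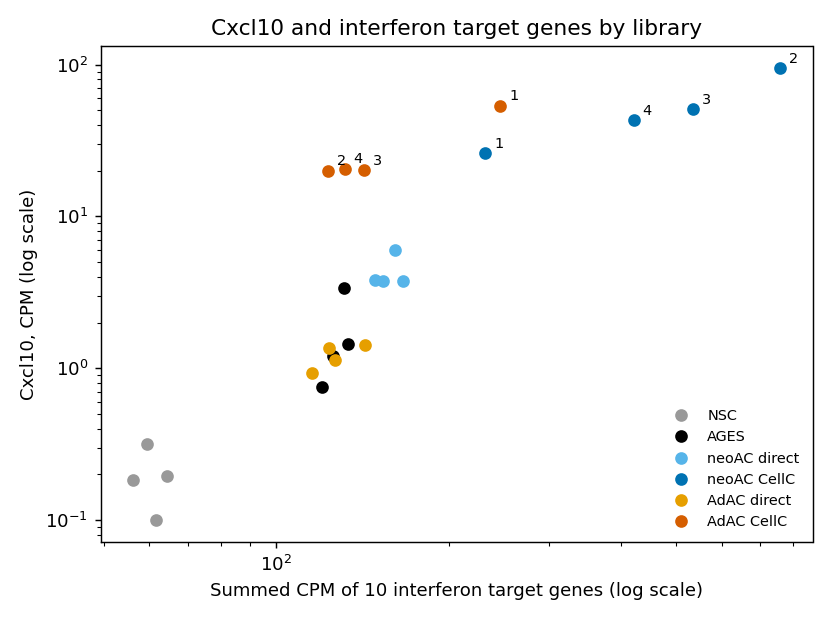
Cxcl10 in CPM (y axis) against the summed CPM of 10 interferon target genes (x axis), both on log scales, in the 24 libraries coloured by group. Numbers give the replicate in the 2 cultured groups. AdAC CellC replicates 2, 3 and 4 lie at 123 to 142 on the x axis, the range of AGES and AdAC direct, with Cxcl10 at 20.03 to 20.6 CPM.

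Cxcl12 (ENSMUSG00000061353; chromosome 6, 117168535 to 117181367, plus strand), the homeostatic ligand of Cxcr4 and Ackr3, moved in opposite directions at the 2 ages. It rose from 22.0, 23.2, 22.8 and 17.0 CPM in AdAC direct to 60.5, 52.2, 47.3 and 51.8 in AdAC CellC, and fell from 36.1, 35.7, 24.8 and 40.5 in neoAC direct to 9.52, 21.1, 13.2 and 14.7 in neoAC CellC. Neither pair of groups overlapped. The log2 fold change was 1.32 ± 0.34 in adults and -1.22 ± 0.34 in neonates (edgeR adjusted p = 0.00139 and 0.00352), and the difference between them was 2.54 ± 0.48 (edgeR adjusted p = 8.15e-05). The order of the ages differed with culture: neoAC direct was above AdAC direct in every library, a difference of 0.69 ± 0.34 that missed the threshold (edgeR adjusted p = 0.0739) but passed in a fit of those 2 groups alone (edgeR adjusted p = 0.000952), while neoAC CellC was 3.62-fold under AdAC CellC (log2 fold change -1.85 ± 0.35, edgeR adjusted p = 7.54e-05).

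Cxcl12 was low in the stem cell line, at 3.78, 1.15, 4.36 and 4.72 CPM in NSC and 1.72, 3.45, 7.31 and 1.42 in AGES. These groups overlapped and their difference was 0.01 ± 0.41 (edgeR adjusted p = 1.00). AGES lay 15.2-fold under AdAC CellC and 4.22-fold under neoAC CellC (edgeR adjusted p = 6.38e-09 and 4.47e-05). Without AGES replicate 3, the highest of its group, the log2 fold changes went from -3.91 to -4.57 and from -2.06 to -2.71. The receptors had another pattern. Cxcr4 lay at 114 ± 34.5 CPM in AGES (mean ± SD, n = 4), 64.7 ± 7.69 in neoAC CellC and 14.4 ± 2.28 in AdAC CellC, and it rose in neonatal culture (1.42 ± 0.17, edgeR adjusted p = 7.41e-08) but fell in adult culture (-1.22 ± 0.17, edgeR adjusted p = 6.88e-07), opposite to Cxcl12 at each age. Ackr3, the scavenging receptor, went from 0.304 ± 0.306 CPM in NSC to 89.3 ± 20.8 in AGES (log2 fold change 8.15 ± 0.29, edgeR adjusted p = 5.66e-18). Per kb of exon, AGES held 63.3 CPM of Cxcr4 and 26.7 of Ackr3 beside 0.425 ± 0.331 of Cxcl12, and AdAC CellC 7.94 and 6.71 beside 6.47 ± 0.676. The exons of the 4 Cxcl12 transcripts together make 8176 bases, the longest length among the members. Over the length of a shorter single transcript, the level of Cxcl12 per kb would be higher.

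**Figure D5:**
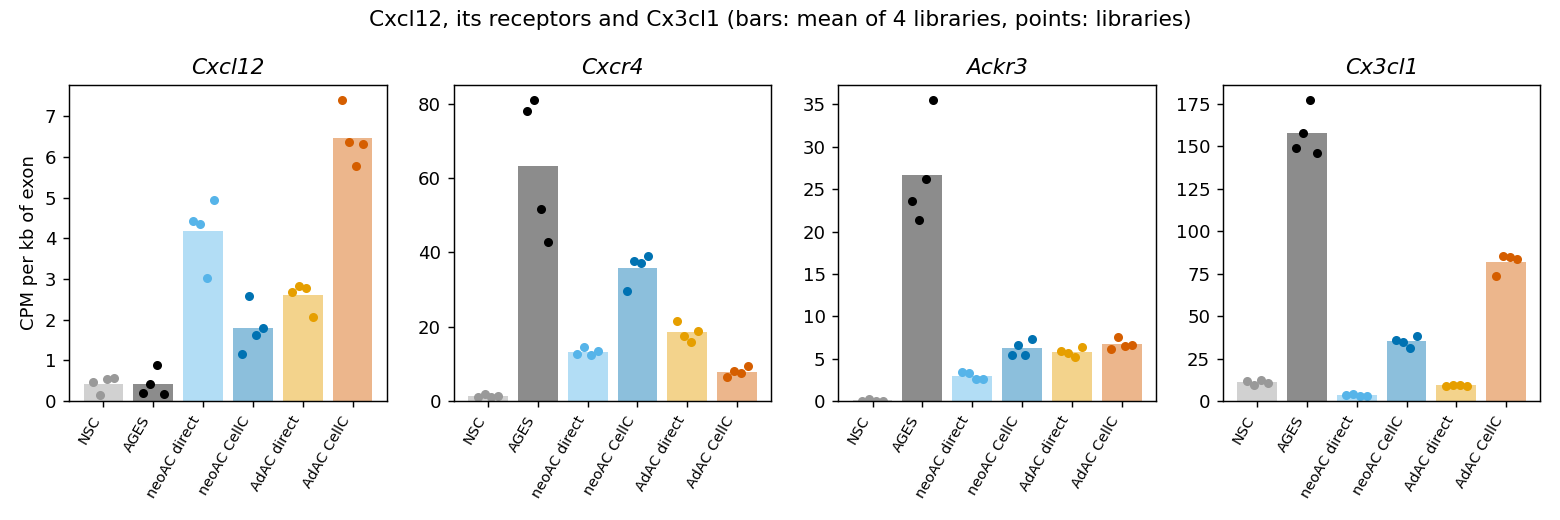
Level per kb of exon (y axis, CPM per kb, linear from 0) of Cxcl12, its receptors Cxcr4 and Ackr3, and the ligand Cx3cl1 in the 6 groups; bars are means of 4 libraries and points are libraries. Cxcl12 is highest in AdAC CellC, and Cxcr4, Ackr3 and Cx3cl1 are highest in AGES.

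Cxcl14 (ENSMUSG00000021508; chromosome 13, 56288643 to 56296551, minus strand), a highly conserved chemokine found in many healthy tissues, was the one member that fell in culture at both ages, and the most abundant in directly isolated cells. It lay at 319.8, 324, 297 and 259 CPM in AdAC direct and 10.6, 14.3, 13.97 and 13.7 in AdAC CellC. The groups were far apart, and the fall was 22.8-fold (log2 fold change -4.51 ± 0.16, edgeR adjusted p = 4.34e-18). NeoAC direct held 144, 203, 170.3 and 134 CPM and neoAC CellC 47.0, 28.1, 35.6 and 29.9. Again the groups did not overlap, but the fall was smaller, 4.63-fold (log2 fold change -2.21 ± 0.14, edgeR adjusted p = 1.08e-12), and the difference between the ages was -2.30 ± 0.20 (edgeR adjusted p = 2.45e-10). The order of the ages differed with culture: Cxcl14 was lower in neonatal than in adult cells when isolated directly (-0.88 ± 0.14, edgeR adjusted p = 3.38e-06) and higher in culture (1.42 ± 0.15, edgeR adjusted p = 6.24e-09). NSC held 0.359, 0.395, 0.287 and 0.435 CPM and AGES 0.312, 0.145, 0.352 and 0.296. These overlapped (log2 fold change -0.43 ± 0.41, edgeR adjusted p = 0.367), and AGES lay 127-fold under neoAC CellC and 47.6-fold under AdAC CellC (edgeR adjusted p = 4.84e-19 and 1.02e-16). The summed astrocyte markers were also lower in culture at both ages, as given above, and their part in the fall of Cxcl14 was not tested.

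Cxcl16 (ENSMUSG00000018920; chromosome 11, 70453983 to 70459984, minus strand), a membrane-bound ligand of Cxcr6 that is shed by the proteases Adam10 and Adam17, rose in culture at both ages. AdAC CellC held 21.4, 18.2, 26.3 and 18.0 CPM and AdAC direct 0.852, 0.989, 1.04 and 0.480. The groups were apart (log2 fold change 4.64 ± 0.28, edgeR adjusted p = 6.49e-13). The neonatal cells went from 0.943, 1.61, 0.781 and 1.36 CPM to 3.12, 6.00, 3.69 and 5.21 in culture. This rise, 1.93 ± 0.26 (edgeR adjusted p = 9.47e-07), was smaller by 2.71 ± 0.37 on the log2 scale (edgeR adjusted p = 1.23e-06), so that AdAC CellC held 4.66-fold more than neoAC CellC (edgeR adjusted p = 2.81e-08), while the directly isolated groups overlapped (0.50 ± 0.30, edgeR adjusted p = 0.137). NSC had 0 counts in every library and AGES 2, 1, 1 and 0. AGES lay below AdAC CellC 643-fold (95% counting interval 251 to 2363) and below neoAC CellC 139-fold (95% counting interval 54.0 to 511) (edgeR adjusted p = 4.86e-15 and 2.93e-12). Adam10 and Adam17 were present throughout, at group means of 102 to 427 and 53.9 to 144 CPM. Exons of Cxcl16 overlap 552 bases of Zmynd15 on the opposite strand, which leaves the count of Cxcl16 reads from that stretch uncertain.

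Between AGES and NSC, 3 of the 10 members were called by the edgeR test, each of them higher (Ccl2, Ccl7 and Cxcl10), where 31.7% of all genes were called higher and 34% lower. At an unadjusted p under 0.05 Cxcl16 was added, on 4 counts against 0. Ccl20, Cxcl1, Cxcl2, Cxcl5 and Cxcl16 were at or under 3 counts in both groups, and no fold is given. AGES were compared with each cultured primary group in fits that share the AGES libraries. Against AdAC CellC 9 members were called, each lower in AGES (31% and 45.2% of all genes, where the median of all genes was -0.23), and against neoAC CellC 7 were called, each lower (34.1% and 40.5%, or 22.9% and 49.9% without TMM scaling). Between the cultured groups, neoAC CellC was higher for 2 members (Cxcl10, Cxcl14) and lower for 8 than AdAC CellC (28.5% and 35.2%). Between the directly isolated groups, neoAC direct was higher for 5 (Ccl2, Ccl7, Cxcl1, Cxcl2, Cxcl10) and lower for 2 (Cxcl5, Cxcl14) than AdAC direct (35% and 36.4%).

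Levels of different genes were compared per kb of exon. The length is that of the exons of all transcripts of a gene together, so it can exceed that of any single transcript. It was 8176 bases for Cxcl12 and 801 to 3021 for the other members, and the ranks of Cxcl12 below depend on it. By CPM, Cxcl12 (52.9) lay near Ccl2 (56.1) in AdAC CellC. In AdAC direct Cxcl14 stood first at 164 ± 16.3 CPM per kb, followed at a distance by Cxcl12 at 2.60 ± 0.351, and the other 8 were at or below 0.536. NeoAC direct had the same first gene, at 89.1 ± 16.8 CPM per kb, with Cxcl12 (4.19 ± 0.818) and Cxcl1 (4.17 ± 0.805) next and within each other's spread. In AdAC CellC Ccl2 led at 49.3 ± 4.60 CPM per kb, ahead of Cxcl5 (15.4 ± 2.35), Cxcl1 (12.9 ± 0.841), Cxcl10 (12.7 ± 7.40) and Ccl7 (12.1 ± 1.26). In neoAC CellC Cxcl10 (23.8 ± 12.9), Cxcl14 (19.2 ± 4.66) and Ccl2 (19.1 ± 7.78) were alike within their spread. Ccl2 led in AGES (12.6 ± 9.61) and in NSC (2.26 ± 1.31), with Ccl7 second in AGES (5.96 ± 5.06). In NSC, Ccl7 (0.475 ± 0.260) and Cxcl12 (0.428 ± 0.197) came next and within each other's spread.

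When the 6 groups were ordered by mean CPM for each gene, 23 of the 50 pairs of neighbouring groups did not overlap. The share over all tested genes was not computed, so this count describes the members only. With 4 libraries against 4 the smallest p of a two-sided exact permutation test is 0.0286, and after adjustment over the 50 pairs the smallest was 0.0621, so no pair of neighbours passed the threshold by that test. Cxcl14 had the clearest order, AdAC direct, neoAC direct, neoAC CellC, AdAC CellC, then the stem cell groups, with overlap between NSC and AGES only. In Ccl7, in contrast, the neighbours overlapped in every step but that from neoAC direct to NSC. Ccl2 overlapped between neoAC CellC and AGES, between AGES and NSC and between NSC and neoAC direct. Cxcl1 and Cxcl2 shared the order AdAC CellC, neoAC direct, neoAC CellC, AdAC direct, AGES and NSC.

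The genes with the most similar pattern were ranked by Pearson's r of log2 CPM over the 24 libraries, among 13022 protein-coding genes with a group mean of at least 5 CPM. The libraries are 6 groups of 4, so r mostly reflects differences between groups, and it is given as a description. The first 3 for Ccl2 were Snx7 (0.944), Rhod (0.933) and Actn1 (0.933), and for Ccl7 they were Dlgap4 (0.910), Ccl2 (0.908) and Rnd1 (0.905). Ccl20 was most like Mmp12 (0.979), Serpinb2 (0.975) and Cldn4 (0.974). Cxcl1 was followed by Ptx3 (0.977), Akap5 (0.969) and Ptgs2 (0.966), and Cxcl2 by Cxcl1 (0.983), Akap5 (0.964) and Ptgs2 (0.964). For Cxcl5 the genes were Ltbp2 (0.980), Lrp2 (0.980) and Cnn1 (0.978), for Cxcl10 Slco1a5 (0.959), Ifi44 (0.956) and Dhx32 (0.952) and for Cxcl12 C1qc (0.941), C1qb (0.938) and Trpv2 (0.938). Cxcl14 was most like Ephx2 (0.993), Abhd3 (0.992) and Paqr7 (0.991), and Cxcl16 like Plau (0.988), Tnfrsf1b (0.982) and Col1a1 (0.982).

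Of 28 other chemokine ligands, 16 were tested. In adult culture 13 were higher and 2 lower, with a median log2 fold change of 3.17, beside 38.8% and 39.2% of all genes. In neonatal culture 5 were higher and 3 lower, with a median of 0.35, beside 34.4% and 31.3% of all genes. Cx3cl1, the membrane-bound ligand of the microglial receptor Cx3cr1, lay at 619 ± 54.8 CPM in AGES and 44.0 ± 4.97 in NSC (log2 fold change 3.82 ± 0.10, edgeR adjusted p = 9.82e-21). It rose in culture at both ages, 8.71-fold in adults and 10.2-fold in neonates, with an interaction of -0.22 ± 0.13 that did not pass the threshold (edgeR adjusted p = 0.122). Ccl6, Ccl9 and Pf4, ligands known from myeloid cells and platelets, were at 17.2 ± 3.17, 7.91 ± 1.23 and 8.97 ± 1.80 CPM in AdAC CellC and at or below 1.30 CPM on average in the other groups. Ccl25 lay between 4.06 and 15.4 CPM and Ccl27a between 0.0323 and 11.5 CPM in the group means, the latter uncertain because it has near-identical copies. Of 18 chemokine receptors 6 were tested. In adult culture 2 of them were higher and 3 lower (38.8% and 39.2% of all genes). In neonatal culture 1 was higher and 3 lower (34.4% and 31.3% of all genes). Among the atypical receptors, Ackr4 was highest in NSC (25.8 ± 7.61 CPM) and Ackr1 in neoAC CellC (6.02 ± 1.35 CPM).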

How the data were processed

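RNA-seq of 24 mouse libraries in 6 groups of 4 was analysed, with groups taken from the sample titles. The authors aligned stranded poly(A) reads to GRCm38 with STAR 2.7.3a and deposited raw counts per gene (featureCounts, Gencode vM12), without normalization or filter; whether counting used strand is not stated. Replicates of the same number were treated as unpaired.

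Identifiers were mapped to symbols and positions with Gencode vM21 (GRCm38), which held 99.3% of them, so levels per kb divide counts of one release by exon lengths of another. Genes were filtered with filterByExpr (19691 of 49671), scaled by TMM and fitted in 1 model of all groups with edgeR 4.0.16 (quasi-likelihood, robust) in R 4.3.3. The 7 comparisons and the interaction were tested two-sided at 0.05 after Benjamini-Hochberg adjustment over all tested genes. Standard errors are the fold change over the square root of F. Groups are given as mean ± SD, n = 4, and neighbouring groups were compared with an exact permutation test. Ratios to groups of few counts divide summed counts by summed scaled library totals and have exact 95% intervals for counting error only. Fitted fold changes of such genes depend on the prior count. The script was tested on simulated data.

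The 10 members and all lists were chosen with earlier results of these data known. Genes named beside them were, per rule, other chemokine ligands and receptors reaching a group mean of 5 CPM, the 3 most similar genes of each member and at most 2 highest and 2 lowest called genes of each list. Alternatives were DESeq2 1.42.0, other scaling and filters, fits of the compared groups, a replicate block and leaving out each library. Promoter windows came from RefSeq (GRCm38).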

Additional observations from a re-analysis of the deposited data

Results flagged for a closer look

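In 5 of 47 groups tested for it, 1 of the 4 libraries stood apart from the other three by a Dixon gap test, a test that chance passes in about 1 in 20 groups. Cxcl10 in AdAC CellC replicate 1 lay at 53.6 CPM against 20.03 to 20.6 in the others, and Cxcl14 in the same library at 10.6 CPM against 13.7 to 14.3. That library also had the highest sum of interferon target genes of its group (246 CPM against 123 to 142). Its sums of astrocyte (821), oligodendrocyte (4119), microglia and macrophage (17.9), oligodendrocyte precursor (155) and neural stem cell genes (1684) were the lowest. Its sums of mural (1017 against 855 to 933), endothelial (85.2 against 74.7 to 82.1) and neuron genes (8.87 against 5.15 to 6.88) were the highest. The part of these cells was not tested. Cxcl5 in neoAC CellC replicate 2 lay at 17.8 CPM against 10.03 to 10.09, the library in which Cxcl10 was highest too. Cxcl10 in neoAC direct replicate 4 lay at 6.02 CPM against 3.77 to 3.84. Cxcl1 in AdAC CellC replicate 2 lay at 21.9 CPM, under the 24.8 to 25.3 of the others.

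The change with culture differed between the ages for 7 of the 10 members, by the edgeR interaction test, which compares the log2 fold change in adults with that in neonates. The test called 35.4% of all genes positive and 33.2% negative, so most genes had such a call. The difference was 8.46 for Cxcl1, 7.23 for Cxcl2, 4.98 for Ccl7, 3.77 for Ccl2, 2.71 for Cxcl16, 2.54 for Cxcl12 and -2.30 for Cxcl14. Cxcl1, Cxcl2 and Cxcl12 were higher in culture in adults and lower in neonates. The neonatal Cxcl1 call was lost in several settings, and the neonatal Cxcl2 call without neoAC direct replicate 2, as given above. Age cannot be told apart from the dissociation kit and the other isolation steps in this difference.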

How the results depend on the processing

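The counts of called members kept within 1.5 times under DESeq2 size factors, library size alone, no filter, the DESeq2 Wald test, fits of the compared groups, the replicate block and every single omission. Leaving out 1 library gave 10 in adult culture, 7 to 9 in neonatal culture, 3 to 4 for AGES against NSC, 9 to 10 and 7 for AGES against AdAC CellC and neoAC CellC, 8 to 10 between cultured ages, 7 between directly isolated ages and 7 to 8 for the interaction. In the same order, all genes called numbered 15040 to 15209, 12468 to 12934, 12576 to 12851, 14739 to 14841, 14357 to 14497, 11881 to 12395, 13565 to 14071 and 13226 to 13676. A filter of 10 counts in every library kept 1 member, Cxcl12, and so gave 1 call in adult culture, neonatal culture, AGES against AdAC CellC, AGES against neoAC CellC, neoAC CellC against AdAC CellC and the interaction, and 0 for AGES against NSC and neoAC direct against AdAC direct. Under that filter 8068 to 9816 of all genes were called in these comparisons. Of 1074 single-gene values under alternatives, 1040 kept direction and side of the threshold, 24 lost a call, 5 gained one and 5 changed sign.

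The sign changes were in uncalled values. Cxcl12 between AGES and NSC was -0.080 by library size alone, -0.024 with the replicate block and -0.64 to 0.27 when 1 library was left out. Ccl7 between AGES and neoAC CellC was -0.077 to 0.79 when 1 library was left out. The cause was not tested. The replicate numbers did not pair the samples (correlations of same-numbered deviations from -0.0953 to 0.106, and no comparison in which every sample correlated best with its own number). With the block the calls were 10 in adult culture, 8 in neonatal culture, 3, 9 and 7 for AGES against NSC, AdAC CellC and neoAC CellC, 9 between cultured ages, 8 between directly isolated ages and 7 for the interaction. In the same order, all genes called in those fits numbered 15031, 11770, 11122, 13842, 12909, 12304, 13803 and 13758. Without TMM scaling the all-gene median (log2) went from 0.04 to 0.27 in neonatal culture, from -0.23 to -0.45 for AGES against AdAC CellC, from -0.07 to -0.37 for AGES against neoAC CellC and from 0.05 to -0.10 for the interaction, and with DESeq2 size factors from -0.08 to 0.02 between cultured ages. Genes at or under 3 counts per library in both groups were not given a fold, which depth did not allow.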

Other observations

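Receptors of the cytokines that are known to induce chemokines were counted in the same comparisons, together with the Toll-like receptors Tlr2, Tlr3 and Tlr4. Of 14 receptors in the list, 9 were higher and 1 lower in adult culture (38.8% and 39.2% of all genes), and 10 were higher and 2 lower in neonatal culture (34.4% and 31.3%), by the edgeR test. Tnfrsf1b, a receptor of tumour necrosis factor and among the genes most like Cxcl16, rose from 1.06 to 83.0 CPM in adult culture (log2 fold change 6.27 ± 0.31, edgeR adjusted p = 3.88e-15). Il1r1, the receptor of interleukin-1, rose 9.55-fold in neonatal culture, from 3.47 to 33.1 CPM (edgeR adjusted p = 4.54e-12). Tlr3, which senses double-stranded RNA, fell from 75.2 to 14.5 CPM in adult culture (-2.38 ± 0.22, edgeR adjusted p = 1.08e-09). In AGES, Il6st, the shared receptor of the interleukin-6 family, lay at 823 CPM against 142 in NSC (2.53 ± 0.09, edgeR adjusted p = 5.40e-18).

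In neoAC CellC, replicates 1 and 2 held more of Ccl2, Ccl7, Cxcl1 and Cxcl2 than replicates 3 and 4 in each of these 4 genes, while Cxcl10, Cxcl12 and Cxcl16 were lowest in replicate 1 and highest in replicate 2. The library totals of the 4 replicates were 28770124, 33821050, 31938851 and 32324835 counts. The immediate-early genes summed to 761, 615, 472 and 556 CPM in replicates 1 to 4, also higher in replicates 1 and 2. Their part in the levels of these ligands was not tested.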
